A study of Mus musculus with 2 samples.

Results

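Imprinted genes, which are expressed mainly from a single parental copy, were examined for open chromatin in mouse cortex together with the regions that control them. The members were 10 listed genes: H19, Kcnq1ot1, Peg3, Snrpn, Ndn, Meg3, Mest, Peg10, Grb10 and Gnas, of 32093 protein-coding and long noncoding RNA genes in GENCODE M21. Of these members, 7 are protein-coding and 3 (H19, Kcnq1ot1 and Meg3) are noncoding. Each was described by its promoters, that is, windows of 1000 bp on each side of its transcript starts, and by its gene body with 20000 bp on each side.

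The assay was DNase-seq, in which DNase I cuts accessible DNA in nuclei so that a peak is a stretch of open chromatin. Male B6CASTF1/J mice, the F1 cross of C57BL/6J and CAST/EiJ, gave the tissue, which was right cerebral cortex taken at 2 months. The data form 1 group of 2 libraries: replicate 1 is animal 5 and replicate 2 is animal 6, but the labels name the same donor record for both. There was no contrast and hence no test, and because the values used here do not separate alleles, the parental copies cannot be told apart.

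Imprinting is set by DNA methylation placed in the germ line of a single parent at imprinting control regions, and this mark survives the reprogramming of the early embryo. The zinc finger protein ZFP57, which recognises the methylated word TGCCGC, and its partner TRIM28 help to keep the mark. On the unmethylated copy, such a region can act as a promoter, as at Kcnq1ot1, Peg3, Snrpn, Mest and Peg10, or as an insulator bound by CTCF, as between Igf2 and H19. In brain, imprinted genes are known for roles in growth, feeding and behaviour.

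The sequences that the results turn on are given 5-prime to 3-prime on the strand of the gene, from the RefSeq copy of GRCm38.p6 (mm10). All words and CpG ratios are those of this reference sequence. Differences of either parental strain from it were not examined. In the region upstream of H19, 3 matches to CGCGNGGNG, the inner letters of its known CTCF sites, lay within chr7:142580297-142580337, chr7:142580752-142580792 and chr7:142582022-142582062, and capitals mark the match.
H19 site 1: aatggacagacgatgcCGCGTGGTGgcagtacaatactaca
H19 site 2: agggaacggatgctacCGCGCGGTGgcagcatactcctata
H19 site 3: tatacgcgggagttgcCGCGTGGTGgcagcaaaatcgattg

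In the next sequences, capitals mark bases that lay within deposited footprints of both libraries, a footprint being a short stretch protected from cutting. The tallest peak of all members stood at the start of Kcnq1ot1 (chr7:143296581-143296820), and the tallest of Peg3 in its intron (chr7:6729441-6729700). The tallest peak of Meg3 lay in a noncoding exon (chr12:109542941-109543160) and that of Peg10 in an intron (chr6:4749121-4749360). For Gnas, the peak at the exon 1A promoter is shown (chr2:174327341-174327560), for Snrpn the part of its start peak upstream of the transcript (chr7:60005112-60005240), and for Ndn a site of 30 bases in its tallest peak (chr7:62348254-62348283).
Kcnq1ot1 start peak: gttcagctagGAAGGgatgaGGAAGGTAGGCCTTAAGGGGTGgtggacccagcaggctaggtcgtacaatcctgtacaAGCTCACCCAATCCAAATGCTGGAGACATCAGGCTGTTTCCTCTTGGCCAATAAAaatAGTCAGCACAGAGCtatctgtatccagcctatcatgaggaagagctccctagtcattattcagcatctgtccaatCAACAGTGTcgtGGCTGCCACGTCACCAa
Peg3 intron peak: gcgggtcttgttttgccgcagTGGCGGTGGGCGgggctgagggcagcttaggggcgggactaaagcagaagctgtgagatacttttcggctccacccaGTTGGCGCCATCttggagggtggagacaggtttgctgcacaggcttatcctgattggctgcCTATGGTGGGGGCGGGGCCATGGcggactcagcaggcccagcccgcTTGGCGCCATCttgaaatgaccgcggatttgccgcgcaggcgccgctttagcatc
Meg3 exon peak: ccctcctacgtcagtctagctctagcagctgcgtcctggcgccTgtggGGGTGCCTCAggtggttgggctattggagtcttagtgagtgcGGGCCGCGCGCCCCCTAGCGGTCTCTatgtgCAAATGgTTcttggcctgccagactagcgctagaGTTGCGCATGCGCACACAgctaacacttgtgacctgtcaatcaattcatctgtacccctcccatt
Peg10 intron peak: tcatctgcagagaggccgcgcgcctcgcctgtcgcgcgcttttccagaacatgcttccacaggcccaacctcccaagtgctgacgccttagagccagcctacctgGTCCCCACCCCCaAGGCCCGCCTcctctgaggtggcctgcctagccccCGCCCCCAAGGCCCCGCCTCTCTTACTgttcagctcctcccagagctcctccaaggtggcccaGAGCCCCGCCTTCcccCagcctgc
Gnas exon 1A peak: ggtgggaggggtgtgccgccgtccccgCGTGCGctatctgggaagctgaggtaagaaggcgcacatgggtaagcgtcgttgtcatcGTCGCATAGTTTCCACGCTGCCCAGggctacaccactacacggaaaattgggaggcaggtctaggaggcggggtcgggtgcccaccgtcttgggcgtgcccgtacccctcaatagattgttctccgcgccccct
Snrpn start peak, upstream part: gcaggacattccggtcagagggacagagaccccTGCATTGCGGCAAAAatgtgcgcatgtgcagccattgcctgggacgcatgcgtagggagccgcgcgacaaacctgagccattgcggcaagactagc
Ndn site: CGCATGCGCAATAtCGCATCAGCCCCGCCC

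Kcnq1ot1 had another accessible site inside the transcript (chr7:143295668-143295866), which differed in base composition from the start peak. It is shown because it held 3 matches to TGCCGC, marked in capitals on either strand.
Kcnq1ot1 inner peak: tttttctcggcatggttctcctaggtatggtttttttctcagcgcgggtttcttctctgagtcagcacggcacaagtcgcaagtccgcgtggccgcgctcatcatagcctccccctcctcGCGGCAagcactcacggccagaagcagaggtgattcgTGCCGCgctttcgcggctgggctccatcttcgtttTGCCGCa

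The data show a promoter peak at 8 of the 10 members when every annotated start is counted. A strict peak, that is, a peak of the smaller set of each library, lay within 1000 bp of a start of 8 of the 10 members in replicate 1 and of 8 in replicate 2. Among all protein-coding genes the share was 63.4% in replicate 1 and 59.3% in replicate 2, and among long noncoding RNA genes it was 29.8% and 26.1%. The members without a promoter peak were H19 and Ndn in both libraries. Counting only the 5-prime end of each gene left 4 members with a peak in replicate 1 and 6 in replicate 2. The share of all genes by that narrower rule was not computed. Peak height is the authors' signal value, on a scale that no source explains. Heights are set against other genes within a library, and a ratio between libraries is given only beside that of all shared peaks. Over the members with a promoter peak, the median of the tallest was 1.93 in replicate 1 and 1.46 in replicate 2, against 3.02 and 2.17 over protein-coding genes with a promoter peak. Kcnq1ot1 stood farthest above the protein-coding median, at percentile 90.6 in replicate 1 and 81.8 in replicate 2. Peg3 (percentiles 59.3 and 53.2) and Meg3 (56.0 and 52.1) were slightly above it in both libraries. Peg10 was lowest, at percentiles 16.5 and 13.3.

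**Figure D1:**
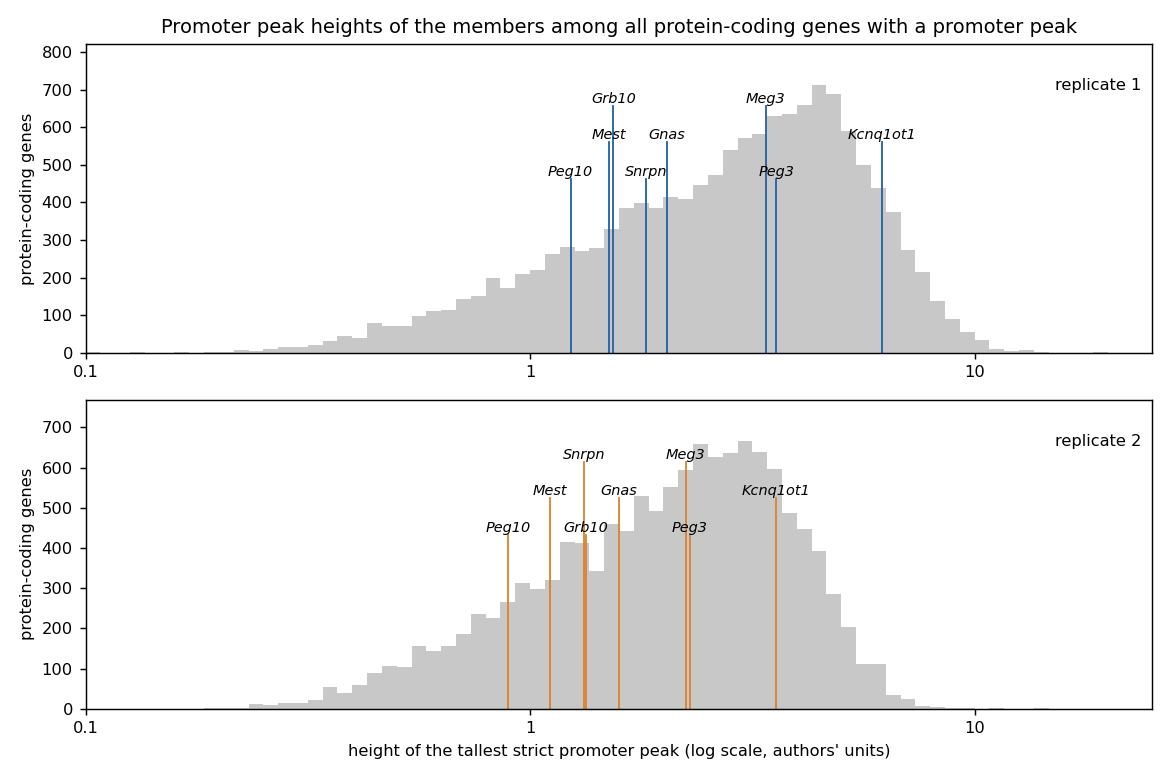
Height of the tallest strict promoter peak (x axis, log scale, authors' units) for all protein-coding genes with such a peak (grey histogram, y axis: number of genes) and for the 8 members that had one (lines), in replicate 1 (top) and replicate 2 (bottom). Kcnq1ot1 lies in the upper tail, at 6.20 and 3.57, and Peg10, Mest, Grb10 and Snrpn lie in the lower part.

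The 63 distinct starts of the members were joined into 32 promoters, with neighbouring starts at most 1000 bp apart put together. Of these promoters, 12 had a strict peak in replicate 1 and 13 in replicate 2, and 11 had one in both. Over the promoters of all protein-coding and long noncoding genes, 34.0% had a strict peak in replicate 1 and 30.3% in replicate 2. Bases listed by the authors with a false discovery rate under 0.05 occurred at 16 of the 32 promoters in each library, against 41.8% and 37.8% of all promoters. Footprints occurred at 14 and 13 of the 32, against 38.0% and 33.3% of all promoters. At 15 of the 32 promoters no base was listed in either library, and the share of all promoters by that rule was not computed. The members' shares with a strict peak, a listed base or a footprint thus lay near the background or somewhat above it.

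**Figure D2:**
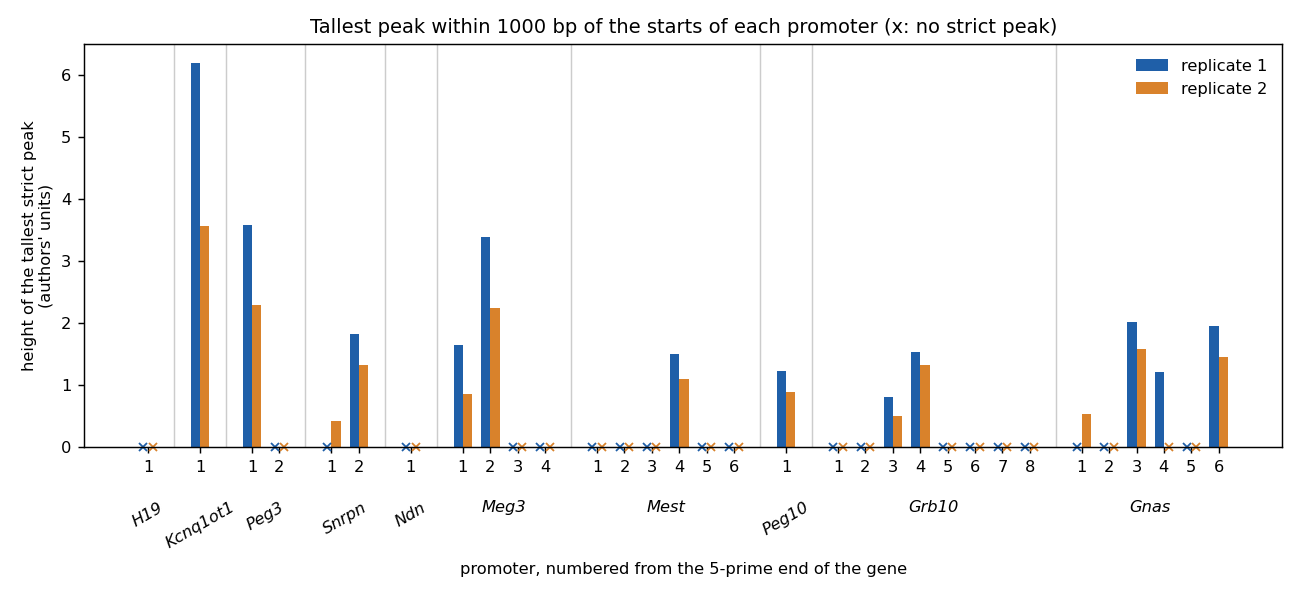
Height of the tallest strict peak (y axis, authors' units) at each of the 32 promoters of the 10 members (x axis, numbered from the 5-prime end of each gene), with replicate 1 in blue and replicate 2 in orange and a cross where there was no strict peak. Bars stand at 14 promoters, of which 11 have a bar in both libraries, and Mest, Grb10 and Gnas show promoters without a peak beside promoters with a peak.

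In and around the members, 54 strict peaks were found in replicate 1 and 47 in replicate 2. Per member the median was 6.5 peaks in replicate 1 and 5 in replicate 2, against 4 and 3 per protein-coding gene. Strict peaks of the libraries that overlapped were merged, which gave 53 accessible sites. Of these, 39 were found in both libraries, 10 only in replicate 1 and 4 only in replicate 2. Counted as peaks, 43 pairs overlapped between the libraries at the members. Over the genome 60789 pairs overlapped, with 91818 strict peaks in replicate 1 and 75245 in replicate 2. The share of merged sites found in both libraries was not computed over the genome. By place, 25 sites lay in introns, 18 upstream of the gene, 4 in exons holding untranslated sequence, 3 in noncoding exons and 3 downstream. The sites of Peg3, Ndn, Mest and Peg10 were found in both libraries without exception, whereas H19 and Gnas had 3 and 4 sites in replicate 1 only.

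**Figure D3:**
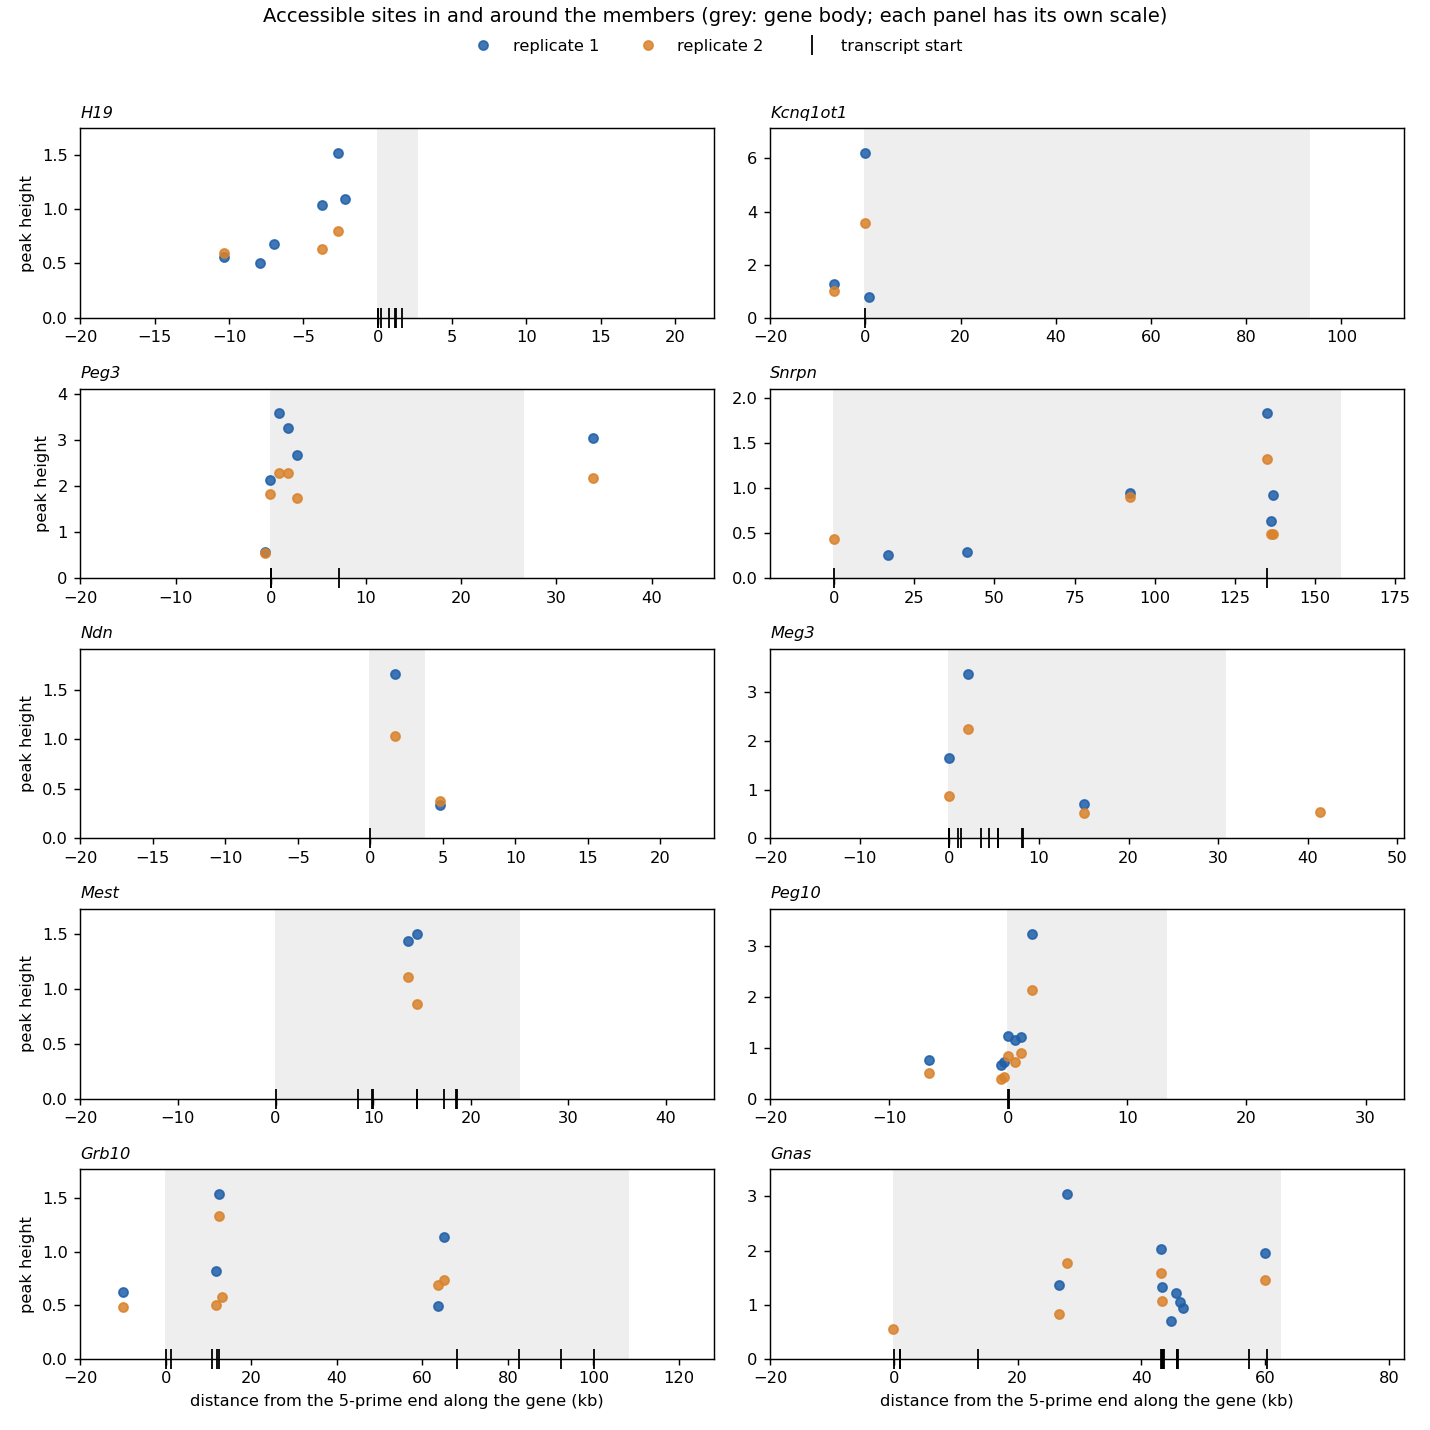
Height of the strict peak (y axis, authors' units) at each accessible site of each member against the distance of its centre from the 5-prime end along the gene (x axis, kb), in replicate 1 (blue) and replicate 2 (orange), with the gene body in grey and transcript starts as ticks. The sites of H19 lie upstream of the gene, the farthest 10210 bp from a start, and those of Mest and Grb10 are away from most annotated starts.

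H19, a maternally expressed noncoding RNA that is abundant in the embryo and mostly silent after birth, had little accessible DNA at its own starts. Its promoter window held no strict peak in either library, and 2 broader peaks in replicate 1 and 0 in replicate 2. Listed bases covered 309 bp of it in replicate 1, at a lowest false discovery rate of 0.00281, and none in replicate 2. No footprint fell there in either library.

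The accessible DNA of H19 lay upstream, in the window from 2000 to 4000 bp before the start, where its imprinting control region is found. This window held 4 strict peaks in replicate 1 and 2 in replicate 2. Listed bases covered 89.7% of it in replicate 1 and 54.5% in replicate 2, with lowest rates of 4.89e-22 and 7.15e-07. It held 11 footprints in replicate 1 and 6 in replicate 2. Of the same windows of all 21938 protein-coding genes, 9.03% held a strict peak in replicate 1 and 7.39% in replicate 2, and 1.75% and 0.966% held 2 or more.

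The peaks upstream of H19 formed 3 sites. The site at chr7:142580681-142580880 was the tallest, at 1.51 in replicate 1 and 0.799 in replicate 2. The site at chr7:142581701-142582120 stood at 1.04 in replicate 1 and 0.630 in replicate 2. The site nearest the gene, at chr7:142580241-142580420, stood at 1.09 in replicate 1 and had no strict peak in replicate 2, although 173 of its 180 bases were listed there. Replicate 2 thus had listed bases at all 3 sites, and both sites with a pair of heights were taller in replicate 1. Farther upstream, 3 lower sites between 6838 and 10210 bp from the nearest start had heights from 0.501 to 0.676 in replicate 1, and of these only the most distant had a strict peak in replicate 2, at 0.599.

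Each of the 3 CTCF words printed above fell in a different one of these sites. In replicate 2 only the word of H19 site 2 lay in a strict peak. The replicate 2 peak at 0.630 (chr7:142581728-142581920) did not reach the word of H19 site 3. In replicate 1 all 3 words lay under footprints, and in replicate 2 only that of site 2 did, at the tallest peak. A CTCF site that departs from this form would not be counted among these words. Of the words of this form in all promoter peaks, 49.6% in replicate 1 and 37.7% in replicate 2 lay under a footprint. The window also held 5 matches to TGCCGC, of which 4 lay under footprints in replicate 1 and 2 in replicate 2. At sites 1 and 3 this word overlapped the CTCF word. The 2 under footprints in both libraries, at chr7:142581791-142581796 and chr7:142581800-142581805, lie on opposite strands in strict peaks of both. Whether they belong to a CTCF site of another form was not examined. Among the same windows of all protein-coding genes, 0.0912% held 3 or more CTCF words of this form. That word was taken from the known CTCF sites of H19, so its presence here was set in advance and the share gives no support. TGCCGC was held 5 or more times by 0.0547% of these windows, and its count at H19 includes the matches that overlap CTCF words. The CTCF core consensus, YY1, NRF1 and SP/KLF words had no match in the window.

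**Figure D4:**
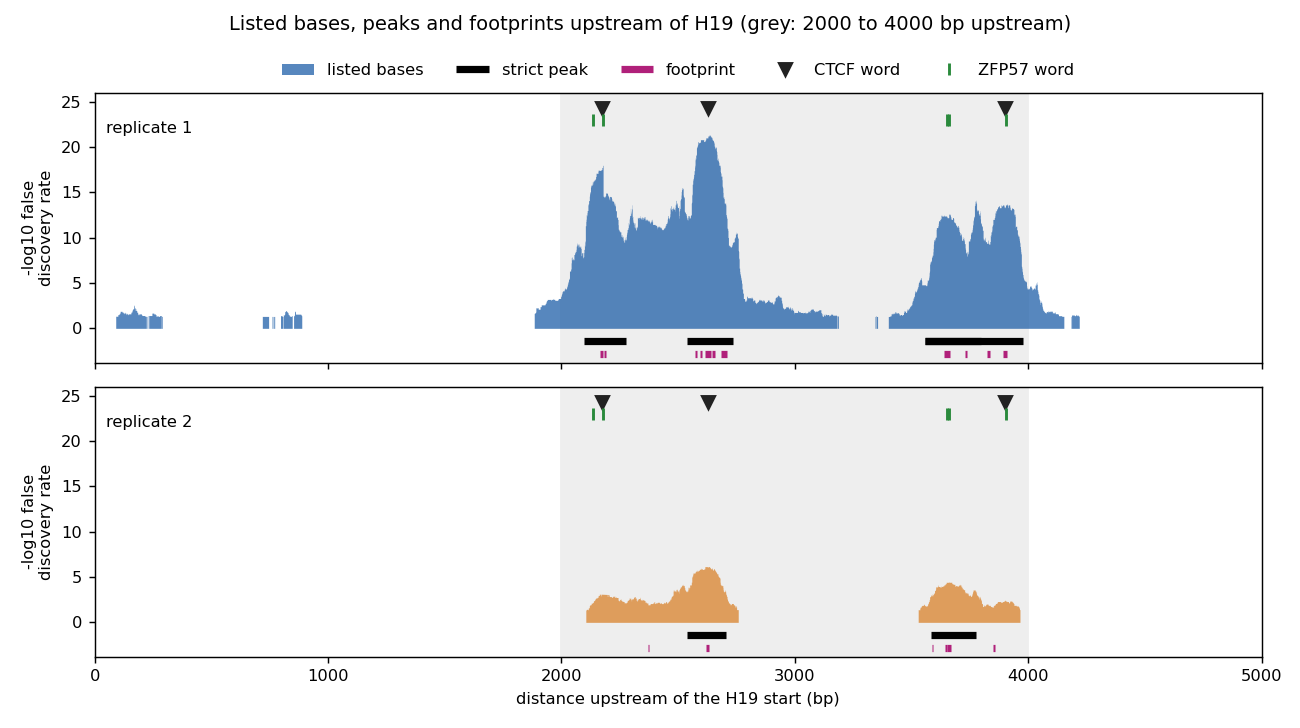
Minus log10 of the deposited false discovery rate per base (y axis) against distance upstream of the H19 start (x axis, bp) in replicate 1 (top) and replicate 2 (bottom), with strict peaks as black bars, footprints as magenta bars, CTCF words as triangles and TGCCGC (ZFP57) words as green ticks. In both libraries bases are listed at the 3 sites that hold CTCF words in the grey window from 2000 to 4000 bp. The signal is weaker in replicate 2, where only the CTCF word at the tallest site lies in a strict peak.

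Meg3, a maternally expressed noncoding RNA of the Dlk1-Dio3 cluster, was open at its 5-prime end. The peak over its start (chr12:109540781-109541080) stood at 1.66 in replicate 1 and 0.868 in replicate 2 and lay within 1000 bp of a start of Gm27596. The taller peak printed above, 2050 bp inside the gene, stood at 3.39 in replicate 1 and 2.24 in replicate 2. It held the NRF1 word GCGCATGCG and the CTCF-like word TAGNGGGCG, both under footprints of both libraries. Of the TAGNGGGCG words in all promoter peaks, 72.5% in replicate 1 and 64.5% in replicate 2 lay under a footprint. TAGNGGGCG was chosen after the printed sequences were read, so finding it in this peak is no evidence in itself. The NRF1 word, bound by nuclear respiratory factor 1, reads on both strands with a shift of a single base and is counted once here. Meg3 promoters 3 and 4, farther inside the gene, had no listed base in either library.

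Between the end of Dlk1, a paternally expressed gene for a Notch-like protein, and the start of Meg3 lie 77664 bp that contain the intergenic control region of the cluster. This interval held 6 strict peaks in replicate 1 and 4 in replicate 2, among them the Meg3 start peak. The others lay from 9424 to 48044 bp after the end of Dlk1 in replicate 1 and from 9396 to 28470 bp in replicate 2, and the tallest reached 1.13 and 0.852. Closer to Meg3, no base was listed over 28255 bp in replicate 1 and 29026 bp in replicate 2. This stretch ended 954 bp before the Meg3 start in replicate 1 and 295 bp before it in replicate 2. The part common to both libraries (chr12:109511792-109540046) contained 402 CpG and 10 TGCCGC words, and 15.4% of it was marked as repeat in the assembly, so most of it was not marked as repeat.

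Kcnq1ot1, a paternally expressed noncoding RNA that runs antisense through Kcnq1 and silences neighbouring genes, had the tallest peak of all members. At its start the peak stood at 6.20 in replicate 1 and 3.57 in replicate 2, with lowest false discovery rates of 2.59e-63 and 1.15e-34. This peak also lay within 1000 bp of a start of Gm37364. The inner peak printed above stood at 0.782 in replicate 1 and had no strict peak in replicate 2, where 177 of its 199 bases were listed. A site 6439 bp upstream stood at 1.29 in replicate 1 and 1.01 in replicate 2. No strict peak lay in the rest of the transcript, which spans 93092 bp.

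The Kcnq1ot1 peaks near the start, where its control region is found, differed in sequence. In the 300 bp around its centre, the start peak had an observed over expected CpG ratio of 0.26, at percentile 11.1 of the promoter peaks of replicate 1. The inner peak had a ratio of 1.11, at percentile 97.6. The start peak held 3 CCAAT words, the word bound by NF-Y, of which 2 lay under footprints of both libraries. Of the CCAAT words in all promoter peaks, 24.6% in replicate 1 and 19.6% in replicate 2 lay under a footprint. Of all promoter peaks, 2.65% in replicate 1 and 3.26% in replicate 2 held 3 or more CCAAT words in the 300 bp around the centre. CCAAT was chosen after the printed sequences were read, so these shares do not show that the start peak is unusual. The 3 TGCCGC words of the inner peak lay under no footprint in either library.

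Peg3, a paternally expressed zinc finger gene, had a row of tall peaks over its start and intron. The start peak (chr7:6730341-6730640) stood at 2.14 in replicate 1 and 1.83 in replicate 2 and was shared with Usp29, a ubiquitin protease gene that starts in the same region on the other strand. In the intron, the peak printed above stood at 3.58 in replicate 1 and 2.29 in replicate 2. Both peaks also lay within 1000 bp of a start of Gm27675. Next to it, chr7:6728281-6728960 stood at 3.25 and 2.28, and chr7:6727381-6728020 at 2.68 and 1.75 in replicates 1 and 2. Each intronic peak was thus taller than the start peak in replicate 1, and in replicate 2 the innermost was slightly lower. Peg3 promoter 2, inside the gene, had no listed base in either library. Downstream, a peak near the start of Zim1, a neighbouring imprinted zinc finger gene, stood at 3.05 in replicate 1 and 2.17 in replicate 2.

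The intronic peaks of Peg3 carried repeated matches to GCCATCTT, the word bound by YY1. They held 10 such words, all reading in the direction of Peg3, of the 12 found over all sites of the members. Of these 10, 8 lay under footprints in replicate 1, 6 in replicate 2 and 5 in both, against 44.5% and 34.3% of the YY1 words in all promoter peaks of replicates 1 and 2. The 10 words were counted over the full width of the sites, which are 640, 680 and 260 bp wide. Those of all promoter peaks were counted in windows of 300 bp. The sites 640 and 680 bp wide lie 2399 and 1459 bp from the nearest Peg3 start and are not promoter peaks, so the sets are unlike. In the 300 bp around the centre, the site printed above held 2, chr7:6728281-6728960 held 1 and chr7:6727381-6728020 held 0. Of all promoter peaks, 3.11% in replicate 1 and 3.63% in replicate 2 held the word in such a window, and 0.09% and 0.096% held 2 or more. Peg3 sites, with the peak near Zim1 included, also held 9 GGGCGG words, counted in the same way. Of these, 8 lay under footprints in replicate 1, 7 in replicate 2 and 6 in both, against 55.1% and 42.6% of such words in all promoter peaks. Other members differed: at Gnas 4 of 17 lay under footprints in replicate 1 and 1 in replicate 2. Over all sites of the members it was 16 and 11 of 35.

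Snrpn, a paternally expressed gene for a spliceosome protein of neurons, lies in the cluster linked to Prader-Willi and Angelman syndromes in humans. Its start peak (chr7:60005041-60005260), shared with Snurf and Gm38393, stood at 1.83 in replicate 1 and 1.32 in replicate 2. It held 2 TGCCGC words, of which 1 lay under footprints of both libraries. Inside the gene, chr7:60003021-60003340 stood at 0.926 and 0.491 in replicates 1 and 2, and chr7:60003580-60004440 at 0.632 and 0.491. The upstream promoter, 135068 bp before the centre of the start peak, had a strict peak only in replicate 2, at 0.430, and 152 listed bases in replicate 1. Between these promoters, 1 intronic site was found in both libraries, at 0.939 in replicate 1 and 0.898 in replicate 2.

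Ndn, a paternally expressed gene of the same cluster that encodes the neuronal growth suppressor necdin, had no listed base within 1000 bp of its GENCODE start. Its tallest peak (chr7:62348181-62348400) lay 1612 bp farther inside the annotated transcript and stood at 1.66 in replicate 1 and 1.04 in replicate 2. This peak contained the RefSeq start of Ndn, at position 62348277. With RefSeq starts, a choice made after seeing the data, 9 of the 10 members had a promoter peak in each library, and only H19 had none. The share of all genes with a peak at RefSeq starts was not computed, so this count has no background. The site printed above holds an NRF1 word and a GGGCGG word, both under footprints of both libraries.

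Mest, a paternally expressed gene for a protein of the hydrolase fold family, was open at promoter 4 of its 6 promoters. There, the peak over the start (chr6:30737861-30738180) stood at 1.502 in replicate 1 and 0.860 in replicate 2. A peak 810 bp from the nearest start stood at 1.44 in replicate 1 and 1.11 in replicate 2. Listed bases covered 73.5% of this promoter in replicate 1 and 50.7% in replicate 2. The other 5 promoters had no strict peak, and 66 bases listed in replicate 2 at promoter 3 were the only listed bases among them.

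Peg10, a paternally expressed gene derived from a retrotransposon, shares its start region with Sgce, the epsilon-sarcoglycan gene, on the other strand. The start peak (chr6:4747101-4747460) stood at 1.23 in replicate 1 and 0.837 in replicate 2. Listed bases covered 88.3% of the promoter in replicate 1 and 88.2% in replicate 2, so most of the window was accessible. Taking the tallest promoter peak of each member that had one, that of Peg10 was nevertheless the lowest in both libraries. The intronic peak printed above, centred 1935 bp inside the gene, stood at 3.23 in replicate 1 and lay outside the promoter window. In replicate 2 the overlapping peak, chr6:4749301-4749480, stood at 2.13. The intronic sites between them, chr6:4747661-4748080 and chr6:4748101-4748640, had CpG ratios of 1.22 and 1.3, at percentiles 99.6 and 99.9 of promoter peaks.

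Grb10 encodes an adaptor of growth factor receptors and is known to be expressed from the maternal copy in most tissues and from the paternal copy in neurons, where promoters in its germline differentially methylated region are used. Of its 8 promoters, the 2 most upstream, at positions 12038683 and 12037401 of chromosome 11, had no listed base in either library. The promoter between 12026324 and 12026732 was the most open, with its tallest peak at 1.54 in replicate 1 and 1.34 in replicate 2. Listed bases covered 87.5% of it in replicate 1 and 87.9% in replicate 2, with 11 and 12 footprints. The promoter at 12027971, whose window overlaps it, reached 0.820 in replicate 1 and 0.499 in replicate 2. Promoters 5 to 8, farther inside the gene, had no listed base.

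The main site of Grb10 (chr11:12025761-12026620) had a CpG ratio of 1.16, at percentile 98.8 of promoter peaks. It held 4 TGCCGC words, of which 1 lay under a footprint in replicate 1 and none in replicate 2. Of all promoter peaks, 3.19% in replicate 1 and 3.35% in replicate 2 held 2 or more TGCCGC in the 300 bp around the centre. The share holding 4 or more was not computed. Deep in the gene, sites at 63614 and 65082 bp from the 5-prime end stood at 0.494 and 1.14 in replicate 1 and at 0.691 and 0.737 in replicate 2.

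Gnas, which encodes the stimulatory G protein alpha subunit, has several promoters with different imprinting, and their peaks differed. The names Nesp, XLas and exon 1A are assigned here from the known order of these promoters along the gene and not from the files. The most upstream promoter, which gives the maternally expressed Nesp transcripts and lies near the antisense gene Nespas, had no strict peak in replicate 1 and a peak of 0.545 in replicate 2. The promoter of the paternally expressed XLas form, at position 174297859 of chromosome 2, had no strict peak, with 107 listed bases in replicate 1 and 31 in replicate 2. Exon 1A, the promoter in the control region next to the main start, had its tallest peak at 2.03 in replicate 1 and 1.58 in replicate 2. The promoter at 174344650, near the 3-prime end of the gene, stood at 1.96 in replicate 1 and 1.46 in replicate 2.

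The main Gnas promoter, which is biallelic in most tissues, had the largest difference between the libraries in its share of listed bases, of the 32 promoters. In replicate 1 it held 5 strict peaks, the tallest at 1.21, and in replicate 2 none. In replicate 2, 4 broader peaks overlapped it and 52.4% of it was listed, against 98.6% in replicate 1. The lowest false discovery rates were 3.26e-08 in replicate 1 and 0.00128 in replicate 2, and the footprints 18 and 9. Away from the promoters, an intronic site (chr2:174312221-174312420) was the tallest of the gene, at 3.04 in replicate 1 and 1.77 in replicate 2, and a neighbouring site stood at 1.36 and 0.822.

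Across the members, the sites near a start had a CpG content close to that of other promoter peaks. Their counts of words are given beside those of all promoter peaks, without a test. The 28 sites within 1000 bp of a start had a median CpG ratio of 0.692, against 0.684 for all promoter peaks of replicate 1 and 0.716 for those of replicate 2. Of these 28 sites, 11 (39.3%) held TGCCGC in the 300 bp around the centre, against 19.9% and 20.4% of all promoter peaks. GGGCGG, the SP/KLF word, was held by 7 of the 28 (25%), against 48.9% and 51.3%. CCAAT, a word chosen after the members' sequences were read, was held by 12 (42.9%), against 31.0% and 32.5%. The other 25 sites had a median CpG ratio of 0.314, and 4 of them (16%) held TGCCGC. Sites of the same gene share their neighbourhood, so these shares describe the members only.

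TGCCGC words of the members lay under footprints at shares near those of all promoter peaks. Over the whole width of all sites of the members, 28 matches were found, of which 8 lay under footprints in replicate 1, 6 in replicate 2 and 3 in both. Of the TGCCGC words in all promoter peaks, 31.7% lay under a footprint in replicate 1 and 22.4% in replicate 2. The NRF1 words of Meg3 and Ndn lay under footprints in both libraries, as did 93.9% and 89.5% of NRF1 words in all promoter peaks. In and around the members, 228 footprints were deposited for replicate 1 and 155 for replicate 2. Of these, 35.1% and 54.2% overlapped a footprint of the other library, close to 30.6% and 53.4% over the genome.

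Heights were greater in replicate 1 at most sites, as over the genome. Of the 39 sites found in both libraries, 36 were taller in replicate 1. The median ratio of replicate 1 over replicate 2, over 43 pairs of overlapping peaks, was 1.47 at the members and 1.38 over all 60789 shared pairs. By gene, the median ratio over sites ran from 1.25 at Ndn to 1.65 at H19. The exceptions that were taller in replicate 2 were single low sites of H19, Ndn and Grb10, with ratios of 0.94, 0.898 and 0.715.

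**Figure D5:**
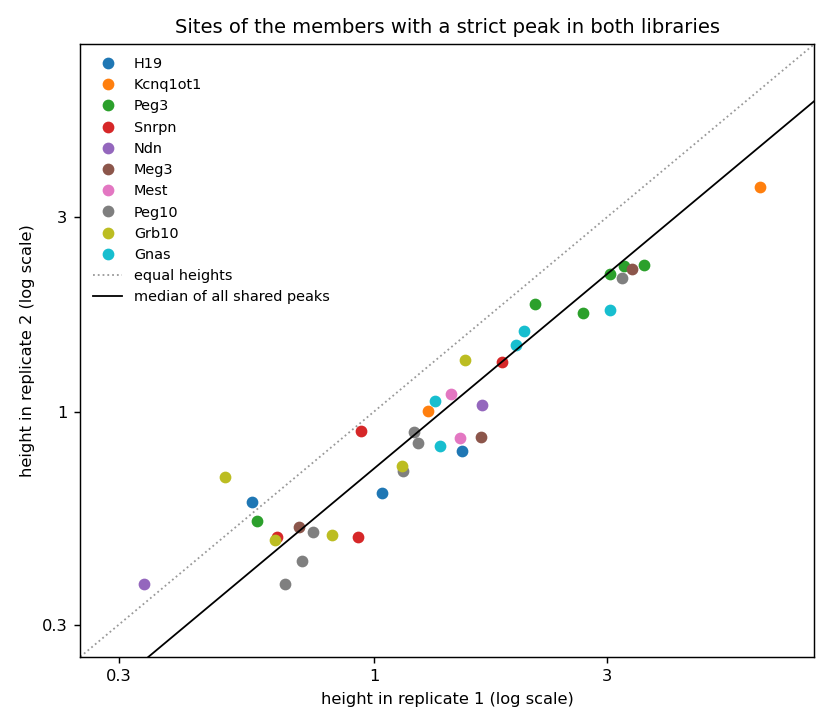
Height in replicate 2 (y axis, log scale) against height in replicate 1 (x axis, log scale) for the 39 sites of the members with a strict peak in both libraries, coloured by gene, with a dotted line at equal heights and a solid line at the median ratio of all shared peaks, 1.38. The points follow the solid line, and 3 lie above the dotted line.

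Other imprinted genes and the factors that act on imprints were described by the same promoter rule. As background, that rule was met by 63.4% of all protein-coding genes in replicate 1 and by 59.3% in replicate 2. For long noncoding RNA genes the figures were 29.8% and 26.1%. No list was tested against these shares. Of 10 genes with a germline methylated region at or near the promoter, 9 had a promoter peak in replicate 1 and 7 in replicate 2. By the mean height of both libraries, the tallest were Inpp5f, a phosphoinositide phosphatase gene (4.13 and 2.96 in replicates 1 and 2), Impact, a regulator of translation (3.75 and 1.96), and Mcts2, a retrogene (3.23 and 2.21), and Nespas had none. Of 36 neighbours in imprinted clusters, 25 had one in replicate 1 and 22 in replicate 2, led, by that mean, by the ubiquitin ligase gene Ube3a (4.52 and 3.36), Commd1 (4.78 and 2.96, a window shared with Zrsr1) and the coatomer gene Copg2 (3.96 and 2.93). The 11 neighbours with none in either library included Cdh15, Ddc and Dio3. The neighbours' counts thus lay near the protein-coding share in both libraries. Of 10 factors, 8 had one in each library, led, by that mean, by the maintenance methyltransferase gene Dnmt1 (4.86 and 3.23), Trim28 (4.49 and 2.86) and Uhrf1 (3.69 and 1.83), and Dnmt3a and Dppa3 had none. Within a single library the order differed: Peg13 was taller than Mcts2, and Asb4 and Trappc9 taller than Copg2, in replicate 1, and Setdb1 was taller than Uhrf1 in replicate 2.

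Replicate 1 had 91818 strict peaks and 394531 footprints, and replicate 2 had 75245 and 241645. Markers of cortical neurons had a promoter peak at 8 of 9 genes in replicate 1 and 6 of 9 in replicate 2. Glial and vascular markers had one at 4 and 3 of 9, and markers of other organs at none of 6. Among all protein-coding genes the share was 63.4% in replicate 1 and 59.3% in replicate 2, so the neuronal count of replicate 2 lay near that share. Around Tbr1, a transcription factor gene of deep-layer cortical neurons, there were 15 strict peaks in replicate 1 and none in replicate 2, and Gad2 had no promoter peak in either library. Whether this difference between the libraries plays a part in the heights at the members was not tested. In bulk tissue, fewer open cells and less signal per cell cannot be told apart.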

How the data were processed

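The samples were 2 DNase-seq libraries of 1 group, described one by one, since the labels number the animals but give both the same donor record. Per the deposited descriptions, the authors made each file from a single library's filtered mm10 alignments, without pooling. The sequencing depth, like the aligner, callers and thresholds, was not given in the sources used here. No precision can therefore be stated for single peaks. The deposited peak height is a signal of unexplained scale. The deposited false discovery rates are q-values of single bases, with only bases under 0.05 listed. Deposited footprints were used as positions, because their value is the constant 0.01, whose meaning is not stated.

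Genes and starts came from GENCODE M21, sequence and alternative starts from RefSeq on GRCm38.p6. An overlap of 1 bp counted. Starts at most 1000 bp apart formed 1 promoter. Matches to 6 words, and to 2 more (CCAAT and TAGNGGGCG) chosen after reading the sequences, were sought on both strands with overlaps allowed. A match lay under a footprint if it overlapped it. Background values came from all genes or promoter peaks treated the same way. Peak overlap, coverage and word search were checked on simulated data, where all 200 planted promoter peaks and all 800 planted words were found. Tools were Python 3.11.15, pandas 2.3.3, pysam 0.24.0 and samtools 1.23.1. Members, lists and words were chosen with earlier results of these data known. The text names all members, the 3 tallest by the mean of both libraries and up to 3 without a promoter peak of each other list, and genes starting within 1000 bp of a named peak. Peg13, Asb4, Trappc9, Setdb1, Tbr1 and Gad2 were named after their values were seen. Nothing was tested, as 1 condition has no contrast.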

Additional observations from a re-analysis of the deposited data

How the results depend on the processing

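Of 29 alternatives over 6 results, 25 left a count within 1.5 times the value reported, or a ratio within its spread, here as means of the libraries, and 4 did not. Counting only the 5-prime end of each gene gave 5 members with a promoter peak (4 in replicate 1 and 6 in replicate 2) in place of 8. Counting every distinct start apart gave 28.5 starts with a peak in place of 12.5 promoters. The larger peak files gave 77.5 peaks in and around the members in place of 50.5. A window of 500 bp gave 8586 listed bases at the promoters in place of 13835. All 4 follow from how each alternative is built, with fewer or more starts, peaks or bases counted. RefSeq starts and the removal of promoters made only of retained introns or processed transcripts, added after seeing the data, gave 9 members and 11.5 promoters. Without replicate 1 or 2, 8 members kept a promoter peak, promoters ranged from 12 to 13, peaks from 47 to 54, listed bases from 12188 to 15482 and footprints from 155 to 228. No paired analysis was possible because there is 1 group. Depth is unknown, so a site absent from a library may lie below its detection, and low sites are the least certain.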
